A study of Mus musculus with 4 samples.

Results

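Elastic fibres and proteoglycans make up much of the extracellular matrix of the aortic wall. The 45 genes described here, of 24346 rows in each file, code for the proteins of the microfibril and elastic fibre (17 genes), the lysyl oxidases that crosslink it (5), the small leucine-rich proteoglycans (8), the large proteoglycans and a link protein (4), hyaluronan synthases and a hyaluronan receptor (3) and the cell-surface proteoglycans (8). They were chosen by symbol from what their products are known to do, and all 45 symbols had a row. RNA came from aorta of C57BL/6 mice aged 3 weeks, with 2 wild-type libraries and 2 libraries from mice that carry a knockout of geranylgeranyl diphosphate synthase (GGPPS, gene Ggps1). The labels name male and female mice for every library. A Cre driver, the cell type of the deletion, the exon removed, and whether animals were pooled are not stated in them. GGPPS makes the geranylgeranyl lipid that anchors many small GTPases to membranes.

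In the aortic media, smooth muscle cells lay down concentric elastic sheets, in which tropoelastin is deposited on microfibrils built of fibrillin, with the help of fibulins and MFAP and LTBP proteins, and is then crosslinked by lysyl oxidases. Small leucine-rich proteoglycans such as decorin and biglycan bind collagen fibrils and growth factors, and versican and aggrecan hold water together with hyaluronan. Syndecans and glypicans carry heparan sulfate chains at the cell surface, where they bind growth factors and matrix. Loss or mutation of several of these genes, FBN1, LOX, FBLN4 (Efemp2) and BGN among them, is known to cause aortic aneurysm.

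Ggps1 itself was measured at 8.96 and 10.6 FPKM in wild-type aorta and at 1.18 and 1.07 FPKM in knockout aorta, the order that the genotype labels give. FPKM is the fragment count scaled for gene length and library size. The FPKM values summed to 515927 and 520478 in wild type, and to 611767 and 632918 in knockout, and the number of fragments behind them is not known. Differences are knockout minus wild type on the scale log2(FPKM + 1), with the standard error (SE) of the fit and n = 2 libraries a genotype. A gene is called higher or lower when limma's p, adjusted by the Benjamini-Hochberg method over the 12314 genes tested, was under 0.05. For the SE and p, limma draws the variance of each gene toward a trend fitted over all genes tested. The SE is thus not the spread of that gene's libraries alone. Nothing in the labels says that the 2 libraries of a genotype came from separate animals. Each p therefore reflects only how far libraries of a genotype spread, which may be technical. Among marker genes, all 10 of the contractile smooth muscle list were present and called lower, with sums of 21004 and 23379 FPKM in wild-type and of 4966 and 6589 FPKM in knockout aorta. Of 10 fibroblast genes 9 were lower (sums 749 and 769 against 392 and 456 FPKM), and of 10 endothelial genes, 9 of them tested, 8 were lower (sums 292 and 300 against 103 and 116 FPKM). All 12 macrophage genes were higher (sums 82.7 and 82.5 against 619 and 521 FPKM), as were all 8 general leukocyte genes (sums 8.92 and 10.02 against 114 and 104 FPKM). Of these, Adgre1, Fcgr1, Itgam, Ptprc, Rac2, Itgb2 and Cd53 were under 1 FPKM in both wild-type libraries. They were tested only because both knockout libraries reached 1 FPKM, so their calls add little. Over all genes tested, 35.2% were called higher and 30.6% lower. In RNA from whole tissue, fewer cells of a type and less RNA per cell cannot be told apart. The part of these cell-type lists in the values below was not tested.

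More of the matrix genes were lower than higher in the knockout aorta. Of the 45, 43 passed the filter of 1 FPKM in 2 libraries. Fbn2 and Has2 did not. Among the 43, 36 (83.7%) were called in either direction, against 65.7% of all genes tested. Of them 14 (32.6% of the 43) were called higher, against 35.2% of all genes tested, and 22 (51.2%) were called lower, against 30.6% of all genes. The other 7 passed in neither direction. Of the 45 genes, 15 had both knockout libraries above both wild-type libraries and 26 had both below. Over all 24346 rows these counts were 6685 and 6140, with 6804 rows at 0 in every library. Lack of overlap was thus common among all genes. At 2-fold or more by mean FPKM, 5 (11.6%) were higher, against 13.6% of all genes, and 15 (34.9%) were lower, against 11.3% of all genes. The median difference was -0.33 over the 43 and 0.03 over all genes tested. The 45 genes summed to 1.59% and 1.56% of the FPKM of the wild-type libraries, against 0.874% and 0.952% for knockout. When every library was scaled to the same FPKM sum, the median of all genes moved from 0.03 to -0.21. The share of higher genes among all those called moved with it, from 53.5% to 35.8%. The median of the 43 moved from -0.33 to -0.59. Of the 43, 9 were then called higher and 27 lower, with Acan, Bgn, Efemp2, Emilin1 and Ltbp3 added to the lower genes. These counts stand against a background that had itself moved toward lower genes. The 35.2% and 30.6% above do not apply to them. The counts that follow use the FPKM as deposited.

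**Figure D1:**
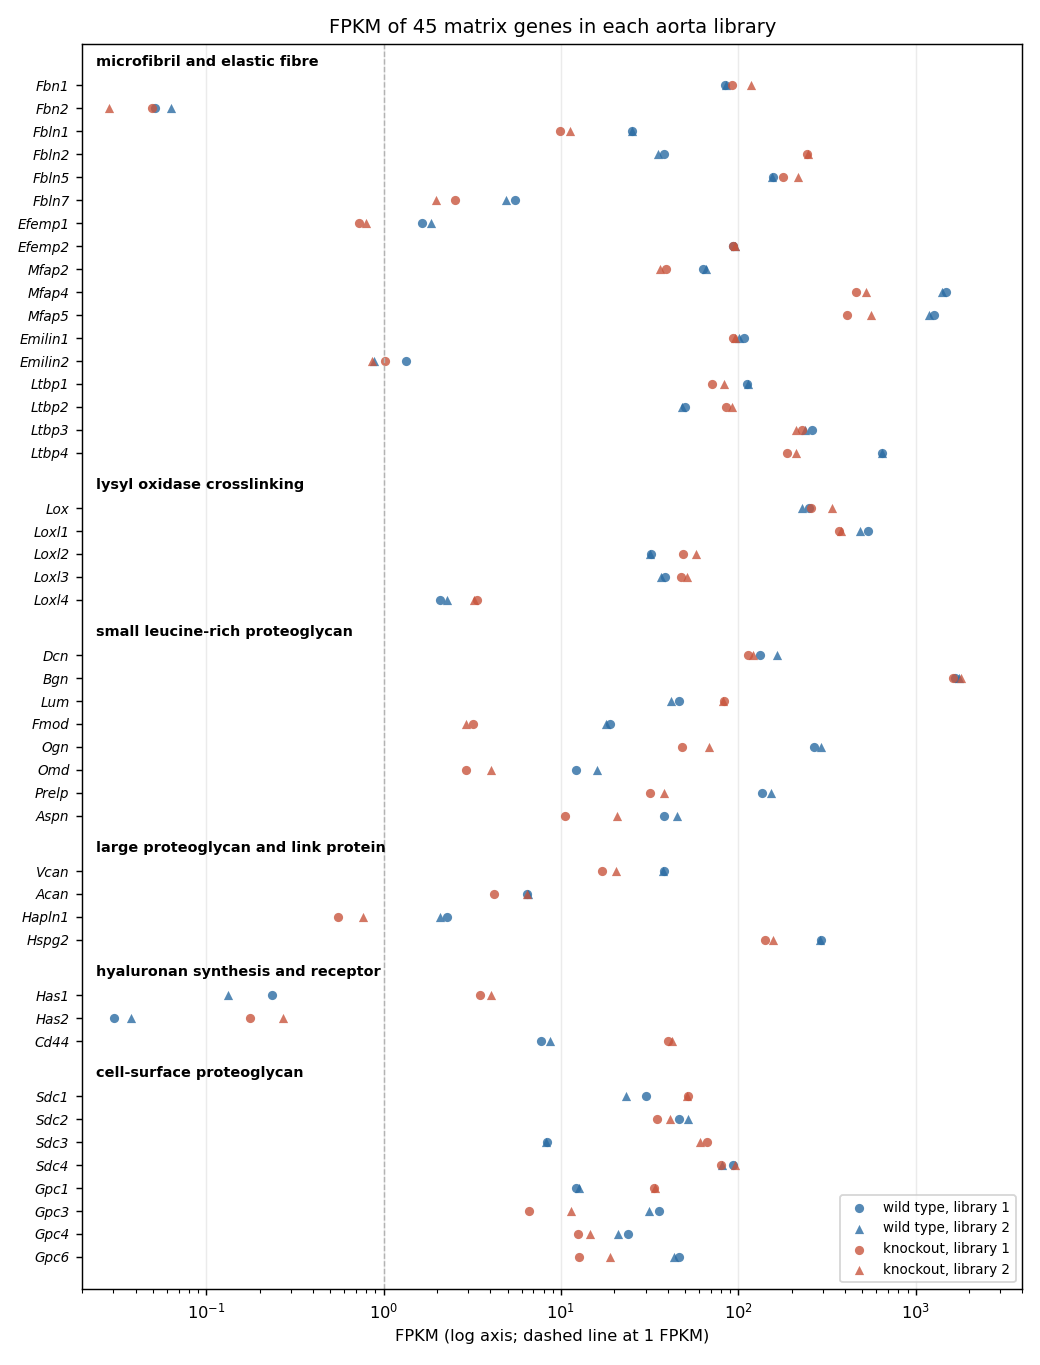
FPKM of the 45 genes in each library, on a log scale and grouped by class, with 1 point a library. For Mfap4, Ltbp4, Ogn and Prelp both knockout points lie well below both wild-type points, and for Fbln2, Sdc3 and Cd44 well above them.

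**Figure D2:**
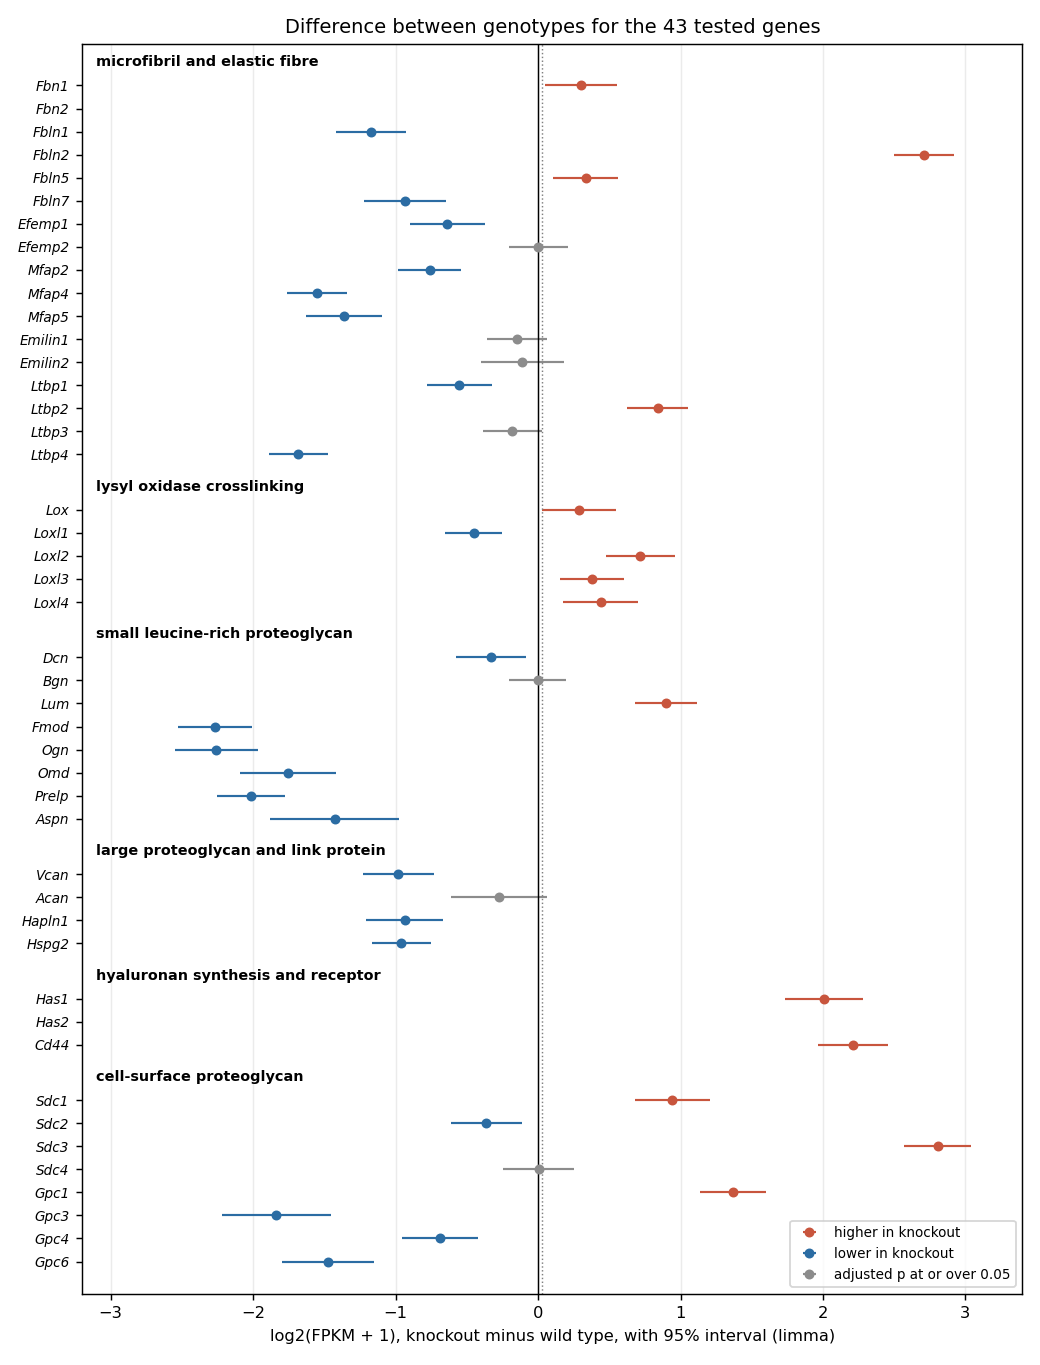
Difference between genotypes on the log2(FPKM + 1) scale for the 43 genes tested, grouped by class, with 95% confidence intervals from limma and the call of each gene. Sdc3 (2.80) and Fbln2 (2.71) lie at the high end and Fmod (-2.27) and Ogn (-2.26) at the low end.

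Among the microfibril and elastic fibre genes, Mfap4, Mfap5 and Ltbp4, the 3 most abundant in wild type, fell, and Fbln2 had the largest rise. Of 17, 16 were tested, 4 were higher, 8 were lower and 4 were not called, with a median of -0.37. The shares over all genes tested were 35.2% higher and 30.6% lower. Mfap4, which codes for a microfibril-associated protein that binds tropoelastin and collagen, had wild-type values of 1483 and 1405 FPKM and knockout values of 460.0 and 526 FPKM. It fell by 1.55 ± 0.10 (SE, n = 2 and 2; limma adjusted p = 1.13e-08). Mfap5, the microfibril protein MAGP2, stood at 1272 and 1188 against 409 and 557 FPKM and fell by 1.36 (SE 0.12, limma adjusted p = 4.69e-07). In both genes the libraries of the genotypes did not overlap, and knockout library 1 was the lowest. Mfap2, which codes for the related MAGP1, stood at 63.2 and 65.9 against 39.0 and 36.3 FPKM and fell by 0.76 (limma adjusted p = 1.84e-05).

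The latent TGF-beta binding proteins (LTBPs), which tether the latent growth factor to microfibrils, moved apart from each other. Ltbp4, which is also needed for fibulin 5 to assemble elastin, was the most abundant in wild type, at 642 and 647 FPKM against 189 and 212 FPKM in knockout. It fell by 1.68 (SE 0.10, limma adjusted p = 4.71e-09), and its part of the summed FPKM of the 4 LTBP genes went from 60.2% and 61.8% to 32.9% and 35.4%. Ltbp2, which does not bind latent TGF-beta, went the other way, from 50.4 and 48.2 FPKM to 85.5 and 92.3 FPKM, and rose by 0.84 (limma adjusted p = 6.34e-06). Ltbp1 fell by 0.55 (limma adjusted p = 3.84e-04), from 112 and 114 FPKM to 71.0 and 83.0 FPKM, with no overlap. Ltbp3 stood at 262 and 238 against 228 and 213 FPKM and was not called (difference -0.18, limma adjusted p = 0.117). In wild type Ltbp4 was above Ltbp3 in both libraries, and in knockout Ltbp3 was above Ltbp4 in library 1 and level with it in library 2. With trends on transcript length and GC content removed, the call of Ltbp1 was lost (-0.22, limma adjusted p = 0.0774).

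The fibulins, matrix glycoproteins that bridge microfibrils and elastin, changed in make-up. Fbln2 had wild-type values of 38.1 and 35.2 FPKM and knockout values of 244 and 246 FPKM, a 6.68-fold higher mean. The libraries of a genotype lay close together, and the difference was 2.71 ± 0.10 (SE, n = 2 and 2; limma adjusted p = 6.27e-11). Among the 45 genes, ranked by mean FPKM, Fbln2 was at rank 26 in wild type and rank 6 in knockout. It went from 11.9% and 11.1% of the summed FPKM of the 6 fibulin genes to 46.1% and 43.01%. Fbln1 fell from 25.1 and 25.1 FPKM to 9.88 and 11.3 FPKM, by 1.17 (limma adjusted p = 9.45e-07). Fbln7 fell by 0.93, from 5.51 and 4.88 FPKM to 2.52 and 1.99 FPKM, and Efemp1 (fibulin 3) by 0.64. None of these 4 fibulins had overlapping libraries. Efemp1 was scarce, at 1.65 and 1.84 against 0.729 and 0.801 FPKM, and passed the filter only through the wild-type libraries.

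Elastic fibre assembly is known to need fibulins 4 and 5, of which the first was not called and the second rose slightly. Efemp2 (fibulin 4), which brings lysyl oxidase to tropoelastin, had wild-type values of 92.9 and 95.3 FPKM and knockout values of 92.8 and 95.7 FPKM. It was not called, and the 95% confidence interval of its difference ran from -0.20 to 0.21. With equal FPKM sums it was -0.26 and passed (limma adjusted p = 0.0206). Fbln5 stood at 157 and 155 against 179 and 216 FPKM and rose by 0.33 (limma adjusted p = 0.0137), a call that was lost when any one of wild-type library 1, wild-type library 2 or knockout library 2 was left out, and with equal FPKM sums (difference 0.071).

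Fbn1, the fibrillin of the postnatal microfibril, had wild-type values of 84.1 and 85.1 FPKM and knockout values of 92.3 and 118 FPKM. Its rise of 0.30 (limma adjusted p = 0.0365) was lost in 7 alternatives. Without knockout library 2 the difference was 0.12, with equal FPKM sums 0.040, and with length and GC trends removed 0.81. Fbn2, the fibrillin of the embryo, stood at 0.0512 and 0.0633 against 0.0492 and 0.0284 FPKM and was not tested. Emilin1 and Emilin2, which code for glycoproteins at the border of elastin and microfibril, were not called, with differences of -0.15 and -0.11. Emilin1 stood at 108 and 101 against 93.0 and 95.5 FPKM and Emilin2 at 1.34 and 0.878 against 1.03 and 0.858 FPKM. Mfap4, Mfap5 and Ltbp4 together held 77.2% and 77.0% of the FPKM of the 17 genes in wild type and 48.2% and 51.7% in knockout. The plot of family shares shows this change of make-up. Elastin itself (Eln) is listed at 0 in every library, so its level is not described.

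**Figure D3:**
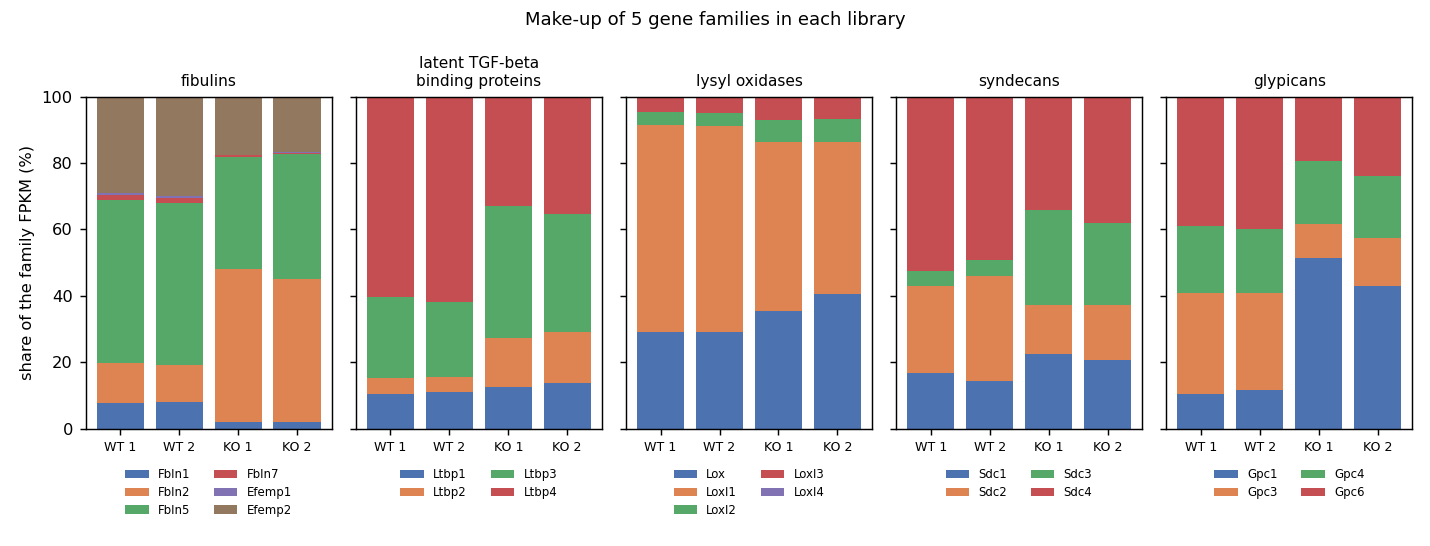
Percent of the summed FPKM of a gene family held by each of its genes, in each of the 4 libraries, as stacked bars that add to 100%. The parts of Fbln2, Gpc1 and Sdc3 are larger in both knockout libraries and those of Ltbp4 and Loxl1 smaller.

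The lysyl oxidases are copper enzymes that oxidise lysines of elastin and collagen so that the chains can crosslink. Their most abundant member fell. The rest were called higher, and of these only Loxl2 kept its call in every alternative. Loxl1, which acts on elastin, had wild-type values of 541 and 488 FPKM and knockout values of 370.3 and 381 FPKM and fell by 0.45 (SE 0.09, limma adjusted p = 7.79e-04). Loxl2 rose from 32.1 and 31.7 FPKM to 48.6 and 58.0 FPKM, by 0.72 (limma adjusted p = 7.34e-05). Neither gene had overlapping libraries, and both kept their calls under every alternative run. Lox, Loxl3 and Loxl4 were called higher too, by 0.29, 0.38 and 0.44 (limma adjusted p = 0.0481, 0.00537 and 0.00625). So 4 of 5 (80.0%) were higher and 1 (20.0%) lower, against 35.2% and 30.6% of all genes. Lox, the founding enzyme, stood at 251 and 229 against 256 and 336 FPKM. Its call was lost in 7 alternatives, among them upper quartile scaling (difference 0.20, limma adjusted p = 0.147). Loxl3 stood at 38.9 and 36.9 against 47.7 and 51.6 FPKM. Loxl4 was scarce, at 2.08 and 2.29 against 3.37 and 3.25 FPKM. With equal FPKM sums only Loxl2 stayed called higher. Lox, Loxl3 and Loxl4 were then at 0.027, 0.12 and 0.28, with limma adjusted p of 0.848, 0.262 and 0.0781. The call of Loxl3 was also lost without wild-type library 2, that of Loxl4 without wild-type library 1, and that of Lox without wild-type library 2 or knockout library 2. Loxl1 held 62.5% and 62.0% of the FPKM of the family in wild type and 51.0% and 45.9% in knockout, and the family's sum overlapped between genotypes (866 and 788 against 726 and 829 FPKM).

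Among the small leucine-rich proteoglycans (SLRPs), 6 of 8 (75.0%) were lower, against 30.6% of all genes, and 1 (12.5%) was higher, against 35.2%. The remaining gene was not called, and the median was -1.59. Fmod, which codes for fibromodulin, a regulator of collagen fibril growth and crosslinking, fell from 19.0 and 18.1 FPKM to 3.18 and 2.93 FPKM. Its difference of -2.27 (SE 0.12, limma adjusted p = 2.26e-09) was the largest fall of the 43 genes. Ogn, which codes for osteoglycin (mimecan), had wild-type values of 267 and 291 FPKM and knockout values of 48.3 and 68.4 FPKM and fell by 2.26 (limma adjusted p = 8.43e-09). It went from rank 7 to rank 20 of the 45 genes. Prelp, whose product links basement membrane to collagen, fell from 136 and 152 FPKM to 32.0 and 38.0 FPKM, by 2.02 (limma adjusted p = 3.74e-09). None of these 3 genes had overlapping libraries.

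Omd (osteomodulin) fell from 12.2 and 16.1 FPKM to 2.92 and 4.04 FPKM, by 1.75 (limma adjusted p = 3.42e-07). Aspn (asporin), which binds collagen and TGF-beta, had wild-type values of 38.2 and 45.03 FPKM and knockout values of 10.53 and 20.7 FPKM, so knockout library 2 lay well above knockout library 1. It fell by 1.43 (limma adjusted p = 4.24e-05), by 0.97 without knockout library 1, and with robust estimation of the variance its adjusted p was 0.0771. Dcn (decorin) stood at 132 and 165 against 113 and 122 FPKM, with no overlap and with wild-type library 2 apart from the rest. Its fall of 0.33 (limma adjusted p = 0.0215) was 0.17 without that library and not called (adjusted p = 0.401), and the call was also lost without knockout library 1. Lum (lumican), the member that rose, went from 46.4 and 41.8 FPKM to 83.6 and 82.4 FPKM, by 0.90 (limma adjusted p = 3.84e-06). Bgn (biglycan) was the most abundant of all 45 genes in both genotypes, with wild-type values of 1664 and 1759 FPKM and knockout values of 1625 and 1795 FPKM, which overlapped. The 95% confidence interval of its difference ran from -0.20 to 0.20. With equal FPKM sums the difference was -0.27 (limma adjusted p = 0.0202). Biglycan held 71.9% and 70.7% of the FPKM of the 8 genes in wild type and 84.7% and 84.1% in knockout.

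Of the 8 SLRP genes, 7 lie in runs of neighbours on chromosomes 1, 10 and 13, and Bgn lies on chromosome X. Every gene of the runs on chromosomes 1 and 13 was lower, and on chromosome 10 the calls differed. Positions are from the GENCODE annotation of GRCm38 (mm10). On chromosome 1 (133897199 to 134048277, 151.1 kb), Optc, Prelp and Fmod were all lower. Optc (opticin), which is outside the 45, had wild-type values of 68.0 and 77.2 FPKM and knockout values of 9.29 and 12.9 FPKM and fell by 2.62 (limma adjusted p = 2.25e-09). On chromosome 13 (49504810 to 49624501, 119.7 kb), Ecm2, Aspn, Omd and Ogn were all lower. Ecm2, a leucine-rich matrix gene also outside the 45, fell by 2.29 (limma adjusted p = 1.75e-08), from 60.7 and 72.1 FPKM to 10.6 and 15.4 FPKM. Cenpp, a centromere gene that overlaps Aspn, Omd and Ogn on the opposite strand, was higher by 0.93 (limma adjusted p = 1.44e-05), at 0.513 and 0.563 against 1.81 and 2.06 FPKM. The labels do not say whether strand was used in counting, so reads of Cenpp and of these genes may not be separable. The same holds for Mfap4 with Mapk7, Efemp2 with Mus81, Loxl3 with Htra2 and Gpc1 with Ankmy1, which overlap on opposite strands. On chromosome 10 (97479609 to 97682454, 202.8 kb), Dcn was lower and its neighbour Lum higher. Kera, the next gene, is listed at 0 and Epyc stood at 0.25 FPKM or less.

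**Figure D4:**
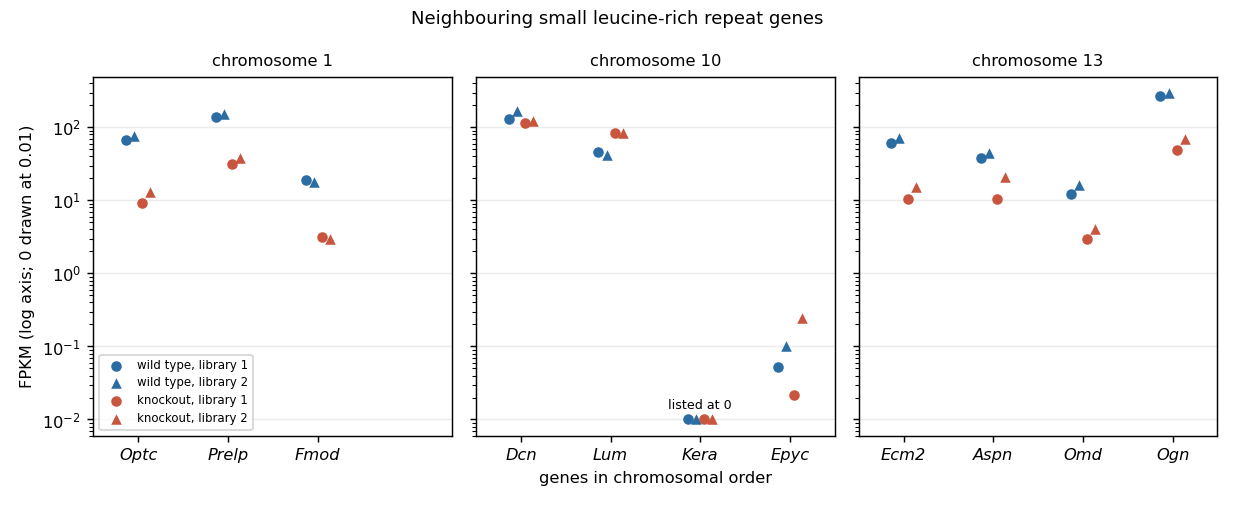
FPKM on a log axis, with 1 point a library, for the SLRP genes and their leucine-rich neighbours in chromosomal order on mouse chromosomes 1, 10 and 13, with values of 0 drawn at 0.01. For every gene of the runs on chromosomes 1 and 13 both knockout points lie below both wild-type points, and on chromosome 10 they do so for Dcn and lie above for Lum.

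The promoters of the run members that fell together are printed next, followed by those of Fbln2 and Sdc3, which had the largest rises of the 43 genes. Each is the 250 bases before the RefSeq start (GRCm38.p6), 5′ to 3′ on the gene's strand, chosen after the values were known. The RefSeq start is that of the GENCODE gene for Fmod, Aspn, Omd and Sdc3. It lies 31 bases before it for Ogn and 13 bases after it for Prelp. For Fbln2 it lies 309 bases after it, so that window is inside the GENCODE gene. Capitals mark matches on either strand to 5 motifs, of which one was the CArG box of serum response factor. The AP-1 motif was searched as TGANTCA. The motif of the TEAD factors was searched as GGAATG. That of SP1 was taken as GGGCGG, and the TATA box was searched as TATAAA. Prelp is on the minus strand at chr1:133921402-133921651 and Fmod on the plus strand at chr1:134037004-134037253. Aspn (chr13:49544193-49544442), Omd (chr13:49582212-49582461), Ogn (chr13:49607765-49608014), Fbln2 (chr6:91212514-91212763) and Sdc3 (chr4:130792287-130792536) are on the plus strand.
Prelp: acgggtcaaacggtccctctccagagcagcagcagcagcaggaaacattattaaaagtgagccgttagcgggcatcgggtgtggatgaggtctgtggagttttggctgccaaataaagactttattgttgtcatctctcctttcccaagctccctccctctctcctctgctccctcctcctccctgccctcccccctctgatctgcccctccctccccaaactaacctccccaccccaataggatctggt
Fmod: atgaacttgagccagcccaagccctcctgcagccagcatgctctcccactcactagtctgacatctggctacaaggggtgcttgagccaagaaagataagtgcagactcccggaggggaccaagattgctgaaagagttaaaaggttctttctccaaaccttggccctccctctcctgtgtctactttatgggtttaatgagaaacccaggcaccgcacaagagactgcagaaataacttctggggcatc
Aspn: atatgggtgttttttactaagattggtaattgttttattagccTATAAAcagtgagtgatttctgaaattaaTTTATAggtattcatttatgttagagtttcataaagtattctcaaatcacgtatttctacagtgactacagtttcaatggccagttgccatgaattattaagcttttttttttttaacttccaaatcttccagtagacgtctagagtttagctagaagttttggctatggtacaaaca
Omd: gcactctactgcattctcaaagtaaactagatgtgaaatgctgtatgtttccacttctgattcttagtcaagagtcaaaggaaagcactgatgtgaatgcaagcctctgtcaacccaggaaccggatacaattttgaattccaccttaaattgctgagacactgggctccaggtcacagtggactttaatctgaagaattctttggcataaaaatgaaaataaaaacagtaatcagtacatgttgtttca
Ogn: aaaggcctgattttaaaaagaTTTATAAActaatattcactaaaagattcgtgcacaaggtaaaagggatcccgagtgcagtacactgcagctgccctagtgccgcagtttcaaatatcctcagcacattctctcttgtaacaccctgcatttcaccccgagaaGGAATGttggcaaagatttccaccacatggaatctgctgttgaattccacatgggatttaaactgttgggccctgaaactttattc
Fbln2: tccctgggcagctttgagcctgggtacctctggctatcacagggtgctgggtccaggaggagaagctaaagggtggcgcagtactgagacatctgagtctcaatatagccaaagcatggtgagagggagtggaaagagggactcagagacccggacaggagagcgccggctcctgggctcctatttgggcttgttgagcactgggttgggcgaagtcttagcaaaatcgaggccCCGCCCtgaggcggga
Sdc3: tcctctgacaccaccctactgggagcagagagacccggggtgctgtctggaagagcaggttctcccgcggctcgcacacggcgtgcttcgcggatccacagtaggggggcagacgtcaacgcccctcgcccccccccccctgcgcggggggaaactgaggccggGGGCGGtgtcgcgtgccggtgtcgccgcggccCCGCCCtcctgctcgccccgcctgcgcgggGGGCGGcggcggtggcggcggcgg

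The promoters printed from the chromosome 13 run, which leave out Ecm2, were poor in GC, with 30.0% in Aspn, 38.4% in Omd and 42.0% in Ogn. The median was 52.4% over all mouse promoters of the table. These promoters of Aspn, Omd and Ogn held 1 to 4 CpG pairs. Prelp had 55.6% GC and Fmod 51.2%. Fbln2 had 58.8% GC with 8 CpG pairs and Sdc3 76.4% with 32, against a median of 6. TATAAA occurred at -207 and -178 in Aspn and, as 2 overlapping matches, at -229 and -227 in Ogn, counted from the RefSeq start. GGAATG occurred at -86 in Ogn. GGGCGG occurred at -16 in Fbln2 and at -86, -54 and -24 in Sdc3, and none of the 5 motifs occurred in the windows of Prelp, Fmod and Omd. RefSeq promoters were matched for 32 of the 45 genes, 41 promoters in all. Of these, 24 (58.5%) held GGGCGG against 32.7% of all 32851 promoters, 6 held GGAATG against 12.6% of all, 2 held TATAAA against 12.4%, 1 held TGANTCA against 6.75% and none held a CArG box against 1.47%. A match is a run of letters and not a measured binding site.

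The large proteoglycans fell or were not called. Hspg2, which codes for perlecan, the heparan sulfate proteoglycan of basement membranes, had wild-type values of 291 and 291 FPKM and knockout values of 142 and 156 FPKM and fell by 0.96 (SE 0.10, limma adjusted p = 1.05e-06). Vcan (versican) fell from 37.9 and 37.4 FPKM to 16.9 and 20.3 FPKM, by 0.98 (limma adjusted p = 5.28e-06). Neither gene had overlapping libraries. Both have long transcripts. Over all genes tested with a known length, the median difference was 0.46 over genes with a longest transcript under 1 kb and -0.34 over the 640 genes of 8 kb or more. With length and GC trends removed Hspg2 was at -0.24 and no longer called (limma adjusted p = 0.0678), and Vcan was at -0.56 and still called. Hapln1, the link protein that locks versican and aggrecan onto hyaluronan, fell from 2.28 and 2.07 FPKM to 0.554 and 0.767 FPKM, by 0.94 (limma adjusted p = 1.88e-05), and passed the filter only through the wild-type libraries. Acan (aggrecan), best known from cartilage, stood at 6.45 and 6.502 against 4.17 and 6.40 FPKM and was not called, with knockout library 1 apart from the other three. The 9 cartilage markers summed to 16.3 and 13.9 against 21.9 and 21.3 FPKM. Of 3 tested, Sox9 was higher and Comp and Col11a2 were lower, and Col2a1 did not exceed 1.33 FPKM in any library.

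In the hyaluronan group, Cd44 rose and the synthases were scarce. Cd44, the main hyaluronan receptor, which leukocytes also carry, had wild-type values of 7.72 and 8.65 FPKM and knockout values of 40.4 and 42.6 FPKM. It rose by 2.21 ± 0.11 (SE, n = 2 and 2; limma adjusted p = 1.70e-09), a 5.07-fold higher mean, beside the rise of the macrophage and leukocyte lists given above. Has1, a hyaluronan synthase, stood at 0.236 and 0.133 FPKM against 3.48 and 4.05 FPKM and rose by 2.01 (limma adjusted p = 1.28e-08). It passed the filter only through the knockout libraries. Has2 stood at 0.0304 and 0.0377 against 0.177 and 0.273 FPKM and was not tested. Has3, the remaining synthase, which is outside the 45, fell from 4.16 and 3.69 FPKM to 0.345 and 0.733 FPKM, by 1.69 (limma adjusted p = 2.11e-07), and passed the filter only through the wild-type libraries. Has3 was the highest of the synthases in wild type and Has1 in knockout.

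The cell-surface proteoglycans changed in make-up within both families, with 3 of 8 higher, 4 lower and 1 not called. Of all genes tested, 35.2% were higher and 30.6% lower, so the share of higher genes in this group was near the general one. Sdc3 (syndecan 3) had wild-type values of 8.35 and 8.27 FPKM and knockout values of 67.0 and 61.2 FPKM, a 7.71-fold higher mean. The difference of 2.80 ± 0.11 (SE, n = 2 and 2; limma adjusted p = 1.37e-10) was the largest rise of the 43 genes. Sdc3 went from rank 35 to rank 19 of the 45 genes and from 4.69% and 5.03% of the FPKM of the syndecans to 28.7% and 24.6%. Sdc1, the syndecan of epithelia and plasma cells, rose from 30.0 and 23.3 FPKM to 52.3 and 51.3 FPKM, by 0.94 (limma adjusted p = 1.36e-05). Sdc2 fell by 0.36 (limma adjusted p = 0.0139), from 46.2 and 52.1 FPKM to 34.8 and 41.4 FPKM, and its call was lost without wild-type library 2 or without knockout library 1. Sdc4, the syndecan of focal adhesions and the most abundant of the 4 in every library, stood at 93.4 and 80.7 against 79.5 and 95.2 FPKM with overlapping libraries. The 95% confidence interval of its difference ran from -0.24 to 0.25.

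Glypicans, which are held to the membrane by a lipid anchor, showed 1 rise among 3 falls. Gpc1 rose from 12.2 and 12.6 FPKM to 33.4 and 33.9 FPKM, by 1.37 (SE 0.11, limma adjusted p = 1.13e-07). Gpc3, an X-linked gene that restrains growth, fell from 35.8 and 31.5 FPKM to 6.62 and 11.3 FPKM, by 1.84 (limma adjusted p = 7.77e-07). Gpc6 fell from 46.1 and 43.3 FPKM to 12.6 and 18.8 FPKM, by 1.47, and Gpc4 from 23.9 and 20.9 FPKM to 12.4 and 14.7 FPKM, by 0.69 (limma adjusted p = 1.25e-06 and 2.28e-04). None of the 4 had overlapping libraries. Gpc1 held 10.4% and 11.7% of the FPKM of the 4 genes in wild type and 51.3% and 43.1% in knockout, and it was the highest of them in both knockout libraries and the lowest in both wild-type libraries. The family's sum was lower in knockout (65.1 and 78.7 FPKM against 118 and 108 FPKM).

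The knockout libraries differed in level from each other. Of the 22 genes called lower, 19 (86.4%) were at a higher FPKM in knockout library 2 than in knockout library 1, as were 76.2% of all genes called lower. Of the 14 called higher, 10 (71.4%) were also at a higher FPKM in library 2, as were 60.7% of all genes called higher. All 10 contractile smooth muscle genes also had the higher value in library 2. Without knockout library 1 the median difference was -0.28 over the 41 matrix genes still tested and 0.041 over all genes tested. Without knockout library 2 it was -0.48 over the 42 matrix genes still tested and -0.062 over all genes tested. The median over all genes thus moved in the same direction as that of the matrix genes.

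Other genes of the same pathways were counted from lists. Of 14 tested genes of elastic fibre assembly outside the 45, 1 (7.14%) was higher, against 35.2% of all genes. A further 9 (64.3%) were lower, against 30.6%, and 4 were not called. Adamtsl1, among the 9, stood at 1.59 and 1.84 against 0.211 and 0.360 FPKM and passed the filter only through the wild-type libraries. Thsd4 (ADAMTSL6), which promotes fibrillin assembly, fell from 93.6 and 94.5 FPKM to 15.3 and 20.4 FPKM, by 2.35 (limma adjusted p = 2.91e-09). Adamtsl4, which also promotes fibrillin microfibrils, fell by 1.33 and Mmrn2, an EMILIN-family gene of endothelium, by 1.41, beside the fall of the endothelial list. Pcolce, an enhancer of procollagen C-proteinase, was the 1 higher gene, at 56.8 and 57.1 against 73.1 and 70.8 FPKM (difference 0.33, limma adjusted p = 0.00890), and lost its call with equal FPKM sums (0.072) or without either wild-type library.

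Of 14 tested core proteins of other proteoglycans, 5 (35.7%) were higher, against 35.2% of all genes, 6 (42.9%) were lower, against 30.6%, and 3 were not called. Esm1 (endocan), a secreted dermatan sulfate proteoglycan known from endothelial cells, had wild-type values of 0.302 and 0.331 FPKM and knockout values of 50.6 and 49.9 FPKM. Its difference of 5.28 ± 0.12 (SE, n = 2 and 2; limma adjusted p = 6.50e-13) was larger than that of any of the 43 genes, while 8 of 9 tested endothelial markers were lower. Prg4 (lubricin) rose by 2.34 and Tsku (tsukushi) by 1.71, and Spock2 (testican 2) fell by 1.59. Nyx, another of the 5 higher genes, stood at 0.648 and 0.570 against 1.52 and 1.57 FPKM. Esm1, Prg4 and Nyx were under 1 FPKM in both wild-type libraries. They passed the filter only through the knockout, so they add little to the count of higher genes. Spock2 passed only through the wild type.

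Enzymes that build the sugar chains were called in both directions. Of 21 tested genes for the linker and for chondroitin or dermatan sulfate, 8 (38.1%) were higher, 7 (33.3%) lower and 6 not called, shares near those of all genes (35.2% and 30.6%). Chpf2 and Chsy1, of the chondroitin polymerase family, rose by 1.11 and 0.79 and the sulfotransferase gene Chst7 by 1.03. Csgalnact1, which starts chondroitin chains, fell from 13.1 and 11.1 FPKM to 2.73 and 4.28 FPKM, by 1.56 (limma adjusted p = 1.35e-06), Chst3 fell by 1.01 and Pxylp1 by 0.67. With equal FPKM sums 5 were higher and 11 lower. Of 15 tested genes of heparan sulfate synthesis and editing, 4 (26.7%) were higher, 8 (53.3%) lower and 3 not called. Ndst1, the main N-deacetylase and N-sulfotransferase, fell from 32.0 and 30.4 FPKM to 15.7 and 15.7 FPKM, by 0.95 (limma adjusted p = 3.85e-06). Sulf1, which removes 6-O-sulfate outside the cell, rose from 60.6 and 63.1 FPKM to 114 and 137 FPKM, by 1.003 (limma adjusted p = 2.71e-06), and Hs6st2, which adds 6-O-sulfate, by 1.33. Extl1 rose by 1.43, and Ndst3 and Hs3st1 fell by 1.08 and 0.85. Extl1 passed the filter only through the knockout libraries and Ndst3 only through the wild-type libraries.

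Of 12 tested genes of hyaluronan turnover and binding outside the 45, 3 were higher, 6 lower and 3 not called. The shares over all genes tested were 35.2% higher and 30.6% lower. Has3, described above, is among the lower genes of this list and passed the filter only through the wild-type libraries. Hyal1, a lysosomal hyaluronidase, fell from 49.3 and 51.8 FPKM to 10.3 and 13.7 FPKM, by 2.00 (limma adjusted p = 1.58e-08). Cemip, a hyaluronan-degrading protein, is listed at 0 in 1 wild-type library and at 3.82 and 3.45 FPKM in knockout, and rose by 2.20 (limma adjusted p = 3.49e-09). Hmmr, a hyaluronan receptor that also marks dividing cells, rose by 1.82, and Cemip and Hmmr passed the filter only through the knockout libraries. Tnfaip6 (TSG-6), which transfers heavy chains onto hyaluronan, rose from 7.57 and 7.495 FPKM to 11.5 and 16.6 FPKM, by 0.80 (limma adjusted p = 3.30e-04). Itih4, of the heavy-chain family, fell from 144 and 192 FPKM to 37.3 and 67.8 FPKM, by 1.70, a call lost with robust estimation of the variance (adjusted p = 0.0663).

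**Figure D5:**
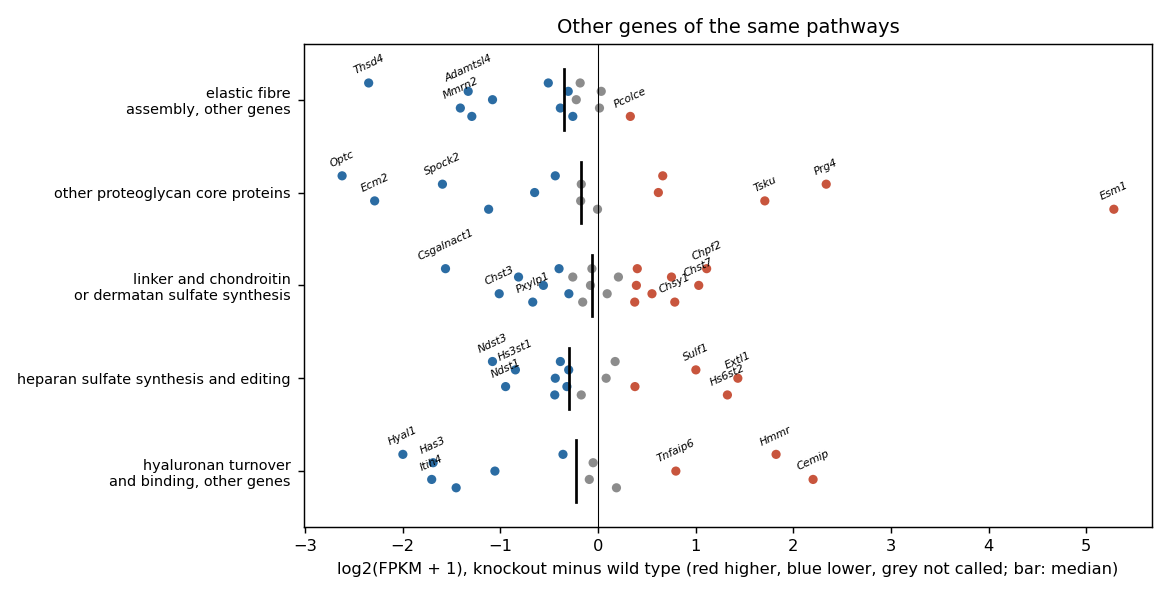
Difference between genotypes on the log2(FPKM + 1) scale for the tested genes of the 5 related pathway lists, with 1 point a gene coloured by its call. Every list holds genes on both sides of 0, and Esm1 (5.28) lies apart from the rest.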

How the data were processed

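Polyadenylated RNA from 4 aortas or pools of aortas was sequenced after random priming, per the labels' protocols. The deposited values are FPKM, 1 file a library, per the file headers. Tools listed by the submitters' processing notes are DESeq2 1.16.1, HISAT2 2.0.5 and featureCounts 1.5.0-p3, with build mm10. No source used here says how strand was treated or which program gave FPKM. No common step was found in the low values, so counts were not recovered.

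Genes that reached 1 FPKM in 2 or more libraries were tested with limma 3.58.1 (R 4.3.3, intensity trend) on log2(FPKM + 1), which understates changes of low genes, with Benjamini-Hochberg adjustment over all 12314 and a threshold of 0.05. Folds are ratios of mean FPKM. An exact permutation of 2 against 2 cannot go below 0.333. The text names all 45 genes, Ggps1, and up to 3 called genes a direction from each pathway list by smallest p. Nyx and Adamtsl1 are also named, for how they passed the filter. Family shares, gene runs, Cenpp and the printed promoters were chosen after values were seen. The genes and lists were chosen with earlier results of these data known. Alternatives varied the pseudocount (0.1, 5), filter (none, 5 FPKM), scaling, variance model, length and GC trends, and libraries.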

Additional observations from a re-analysis of the deposited data

How the results depend on the processing

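Of the 36 genes called, 26 kept their call in every alternative in which they were tested, 10 lost it in at least 1 and none changed direction. The count of higher genes went from 14 to 9 with equal FPKM sums. In that setting the higher lysyl oxidases went from 4 to 1, the higher microfibril and elastic fibre genes from 4 to 2, the other elastic fibre genes from 1 higher to 0, and the chondroitin and dermatan sulfate genes from 8 higher and 7 lower to 5 and 11. Without a filter, 2 microfibril genes, 3 hyaluronan members and 2 other elastic fibre genes were higher. With a filter of 5 FPKM, 1 hyaluronan member was higher, 2 large proteoglycans were lower, and the other hyaluronan genes were 1 higher and 4 lower. With length and GC trends removed, 2 large proteoglycans, 6 other elastic fibre genes, 4 heparan sulfate genes and 4 other core proteins were lower.

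When 1 library was left out, the pair of a genotype was down to 1 library, which is assumed to vary like the other genotype. The filter was applied anew to the libraries left. Part of the change in the counts below is thus genes no longer tested. Has1, Esm1 and Prg4 went untested without either knockout library, and Hapln1 without either wild-type library. The higher members then ranged from 10 to 13, microfibril genes from 2 to 4, lysyl oxidases from 2 to 4 and hyaluronan members from 1 to 2, and the lower large proteoglycans from 2 to 4. The other elastic fibre genes ranged from 0 to 1 higher and 6 to 10 lower, the heparan sulfate genes from 4 to 9 lower, and the other hyaluronan genes from 1 to 3 higher and 4 to 6 lower. The chondroitin and dermatan sulfate genes ranged from 5 to 8 higher and the other core proteins from 2 to 5 higher.

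The direction of 7 genes that were not called turned. Acan was at 0.12, Emilin1 at 0.087, Emilin2 at 0.035 and Ltbp3 at 0.20 with length and GC trends removed. Efemp2 was at -0.26 with equal sums, -0.090 with upper quartile scaling and -0.047 with length and GC trends removed, and ranged from -0.020 to 0.024 without 1 library. Sdc4 was at -0.26, -0.089 and -0.15 in the same settings and ranged from -0.13 to 0.13 without 1 library. Bgn ranged from -0.074 to 0.070 without 1 library. With the 10 highest rows left out of the sum, the 45 genes held 1.76% (wild type) and 1.01% (knockout) of FPKM, the microfibril genes 0.926% and 0.419%, and the SLRP genes 0.516% and 0.361%. The causes were not tested. No paired analysis was possible because the labels give no replicate numbers shared between genotypes, and the numbers 1 and 2 used here follow accession order and are names only. Depth is unknown, so no limit could be set on genes listed at 0.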
